A study of Mus musculus with 11 samples.

Results

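The genes described here are 28 grouped as postsynaptic scaffolds and plasticity kinases, with adhesion, calmodulin-binding, exchange factor and actin proteins among them. They were taken by gene symbol from a count table of mouse hippocampus, which held 30681 genes. All 28 were found, 1 row each, and all 28 were among the 16587 genes with enough counts to be tested. They were 4 membrane-associated guanylate kinases (Dlg1 to Dlg4), 4 SAPAP scaffolds (Dlgap1 to Dlgap4), 3 Shank scaffolds, 2 Homer scaffolds (Homer2 and Homer3), 3 neuroligins, 5 calcium/calmodulin-dependent kinases (Camk2a, Camk2b, Camk2d, Camk2g and Camk4), 2 conventional protein kinases C (Prkca and Prkcb), the calmodulin-binding protein Nrgn, 3 GTPase exchange factors (Iqsec1, Iqsec2 and Kalrn) and the spine actin protein Synpo.

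The study set 6 libraries of mice with a conditional knockout (cKO) of Dclk3, a doublecortin-like kinase, against 5 libraries of wild-type (WT) mice, all aged 6 months. A conditional knockout removes a gene only in cells that carry a recombinase, and the sources used here give neither the recombinase line nor which exons were removed. Each library held polyadenylated RNA of 1 hippocampus. The labels do not say that each came from a separate animal, so the p-values cover only the spread among these libraries.

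The total count was 24001828 to 35674490 per library, and a member had between 830 and 260791 counts in a library. Levels are given in CPM, the count relative to a scaled library total, and differences as the log2 of cKO over WT. In libraries labelled cKO Dclk3 averaged 20.1 ± 3.44 CPM, against 22.4 ± 3.31 CPM in WT (SD, n = 6 cKO and 5 WT), a log2 fold change of -0.15 ± 0.12 (SE) that did not pass the test (edgeR, adjusted p = 0.727). The direction of every difference below is therefore that of the labels. Xist and 4 Y-linked genes marked all 6 cKO libraries as male, WT replicates 2 and 5 as male, and WT replicates 1, 3 and 4 as female. Genotype and sex were thus unbalanced, and differences are therefore also given for the 8 male libraries. Markers of the hippocampal fields were present in every library, with a summed level of 841 to 1072 CPM in cKO and 798 to 973 CPM in WT for CA1 pyramidal cells, and of 671 to 838 CPM in cKO and 668 to 885 CPM in WT for dentate granule cells.

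As background, the postsynaptic density is a protein sheet under the membrane of a dendritic spine. Dlg proteins hold glutamate receptors and adhesion molecules at the membrane, SAPAP proteins link them to Shank proteins, and Homer proteins join Shank to metabotropic receptors and calcium stores. Neuroligins span the membrane and bind neurexins of the axon terminal. Calcium that enters through NMDA receptors binds calmodulin, which neurogranin (Nrgn) holds at rest, and activates CaMKII, the kinase best known from long-term potentiation in the hippocampus.

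Most members were large genes. Their median genomic span was 102 kb, against 22.2 kb for the tested genes, and 14 of 28 spanned over 100 kb, as did 14.3% of the tested genes. Dlg2 was the longest at 1973 kb and Nrgn the shortest at 8.41 kb. A promoter window, the 250 bases before and 50 bases after a RefSeq transcript start, was at hand for 20 members, with 33 windows in all. The median G and C content was 59.3% in these 33 windows and 52.7% in all 32851 windows. The ratio of observed to expected CG dinucleotides was over 0.6 in 17 of 33 windows (51.5%), against 35.8% of all windows. The letters TATAAA occurred on either strand in 3 of 33 windows (9.09%) and in 13.6% of all windows, and the letters TGACGTCA in none of the 33 and in 1.79% of all. Neither motif contains the other. Windows of 1 gene can overlap in sequence, and a match of letters is no evidence of a bound factor.

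The 100 bases directly before the start of the first listed RefSeq transcript are shown for Dlgap1, Shank3 and Iqsec2. Each was the member of smallest p in its role group, and other such members are not shown. The windows around these 3 starts all had an observed to expected CG ratio over 0.6. Windows with fewer CG dinucleotides, such as that of Dlgap3 with a ratio of 0.117, are not shown, so the 3 do not span the members' promoters. Capitals mark CG dinucleotides. The sequences are from RefSeq on GRCm38.p6, 5′ to 3′ on the plus strand, at chr17:69968973-69969072 for Dlgap1, chr15:89499508-89499607 for Shank3 and chrX:152144168-152144267 for Iqsec2.
Dlgap1: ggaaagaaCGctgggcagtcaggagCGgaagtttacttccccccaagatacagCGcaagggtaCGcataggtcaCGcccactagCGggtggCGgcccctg
Shank3: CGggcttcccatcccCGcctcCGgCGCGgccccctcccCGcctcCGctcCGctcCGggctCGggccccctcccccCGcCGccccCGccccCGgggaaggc
Iqsec2: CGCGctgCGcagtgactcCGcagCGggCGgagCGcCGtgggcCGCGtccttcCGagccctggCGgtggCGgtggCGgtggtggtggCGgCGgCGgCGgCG
The Dlgap1 stretch holds 7 CG dinucleotides, the Shank3 stretch 14 and the Iqsec2 stretch 19. None of the 3 stretches overlapped an annotated exon in GENCODE M21.

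The members differed widely in level. Per kilobase of exon, Camk2a (the alpha subunit of CaMKII) averaged 924 ± 61.1 CPM per kb and Nrgn 881 ± 93.7 CPM per kb (SD over all 11 libraries, n = 11), and the 2 ranges overlapped. Camk2b, the beta subunit, followed at 135 ± 10.1 CPM per kb and lay below both in every library. Dlgap3 stood at 106 ± 6.90 CPM per kb, Dlg4 (PSD-95) at 82.9 ± 2.19 CPM per kb and Shank1 at 72.8 ± 5.86 CPM per kb. The ranges of Dlg4 and Shank1 overlapped, at 79.1 to 85.4 and 64.3 to 82.7 CPM per kb. At the low end Nlgn1 had 5.85 ± 0.38 CPM per kb, Nlgn3 3.70 ± 0.23 CPM per kb and Camk2d (the delta subunit) 1.57 ± 0.31 CPM per kb, with no overlap between these 3. The other 19 members lay between 10.1 and 61.1 CPM per kb. With the longest transcript as the length instead, the first 3 places were unchanged, but Camk2d had 6.39 CPM per kb, above Nlgn3 at 4.02 CPM per kb, and the rank of a member moved by up to 7.

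**Figure D1:**
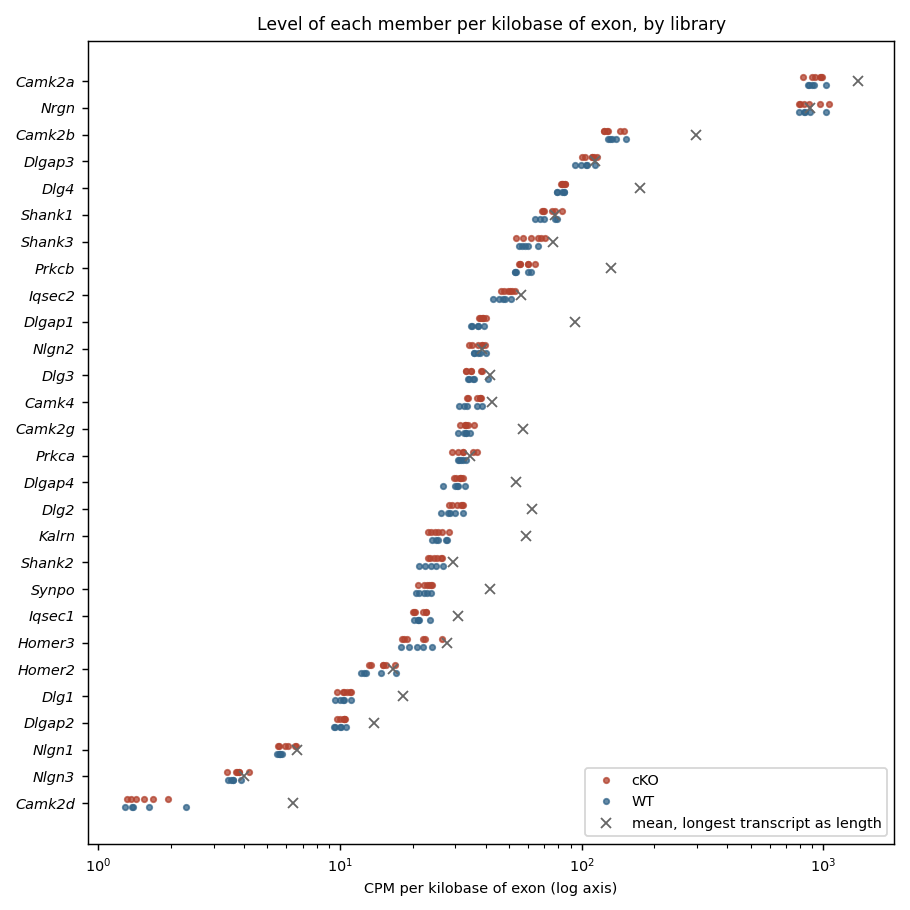
Level of each of the 28 members in CPM per kilobase of exon union (log axis). Points are libraries (cKO above, WT below in each row), and crosses mark the mean over 11 libraries with the longest transcript as the length. Camk2a and Nrgn stand apart at the top, near 924 and 881, and Camk2d is lowest at 1.57.

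Together the 28 members made up 1.64% to 1.85% of the scaled counts of a library, and Camk2a alone was 37.1% to 41.3% of that sum. No member's level differed between libraries labelled cKO and WT beyond the spread between replicates once p was adjusted. The test called 0 of 28 members and 0 of 16587 genes (0% of genes, edgeR's quasi-likelihood test, p adjusted by Benjamini-Hochberg), and the lowest adjusted p of a member was 0.536. At an unadjusted p under 0.05, 1 member was higher in cKO (Nlgn1), against 637 of all genes (3.84%), and 0 members were lower, against 887 of all genes (5.35%). DESeq2 called 62 of all genes (0.374%) and 0 members, with a lowest adjusted p of 0.413. In bulk tissue, fewer cells of a type and less RNA per cell cannot be told apart.

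The differences were small in both directions. Of the 28 members 22 had a log2 fold change above 0 and 6 below 0. Their median was 0.04, with a range from -0.04 to 0.11, against a median of -0.00 over all genes tested. The cKO and WT libraries overlapped for all 28 members, so 0 members were separated upward, against 0.404% of all genes, and 0 downward, against 0.512%. The 95% interval of the fold change lay within a 25% change (0.32 on the log2 scale, either way) for 27 of 28 members, the exception being Camk2d. The same held for 62.9% of all genes tested and for 94.7% of the 5902 genes at least as abundant as the lowest member.

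**Figure D2:**
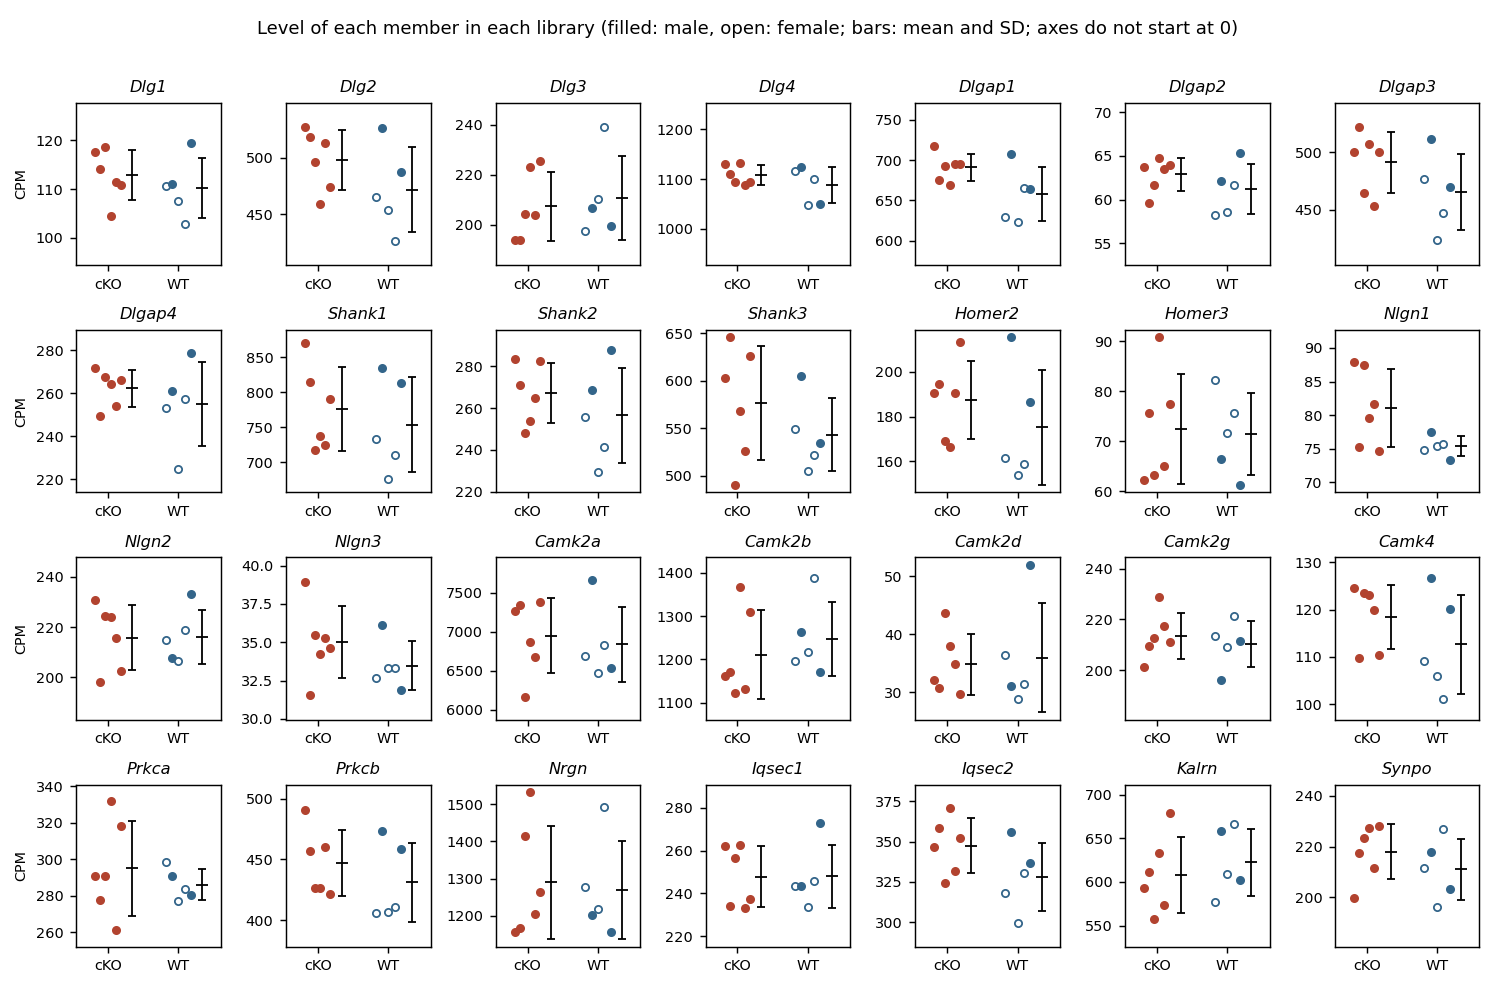
Level (CPM) of each of the 28 members in every library, with cKO left of WT. Filled points are male and open points female libraries, bars give the mean and SD, and the axes do not start at 0. The groups overlap for all 28 members, and the tightest WT group is that of Nlgn1, at 73.3 to 77.4 CPM.

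The excess of positive signs was not seen in male libraries. Among the 6 male cKO and 2 male WT libraries, 13 members were above 0 and 15 below, with a median of -0.01 and a range from -0.25 to 0.18. The sign of 11 members turned there, 10 of them to negative. No member had an unadjusted p under 0.05 in the male libraries, where 2% of 17089 tested genes were higher and 3.58% lower at that threshold, and the lowest p of a member was 0.176 (edgeR, unadjusted). With all 11 libraries and sex as a term, 13 members were again above 0 and 15 below, with a median of -0.01. The 2 male WT libraries give wide intervals, and 25 of 28 members kept a 95% interval within a 25% change, the exceptions being Camk2d, Homer3 and Nrgn.

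**Figure D3:**
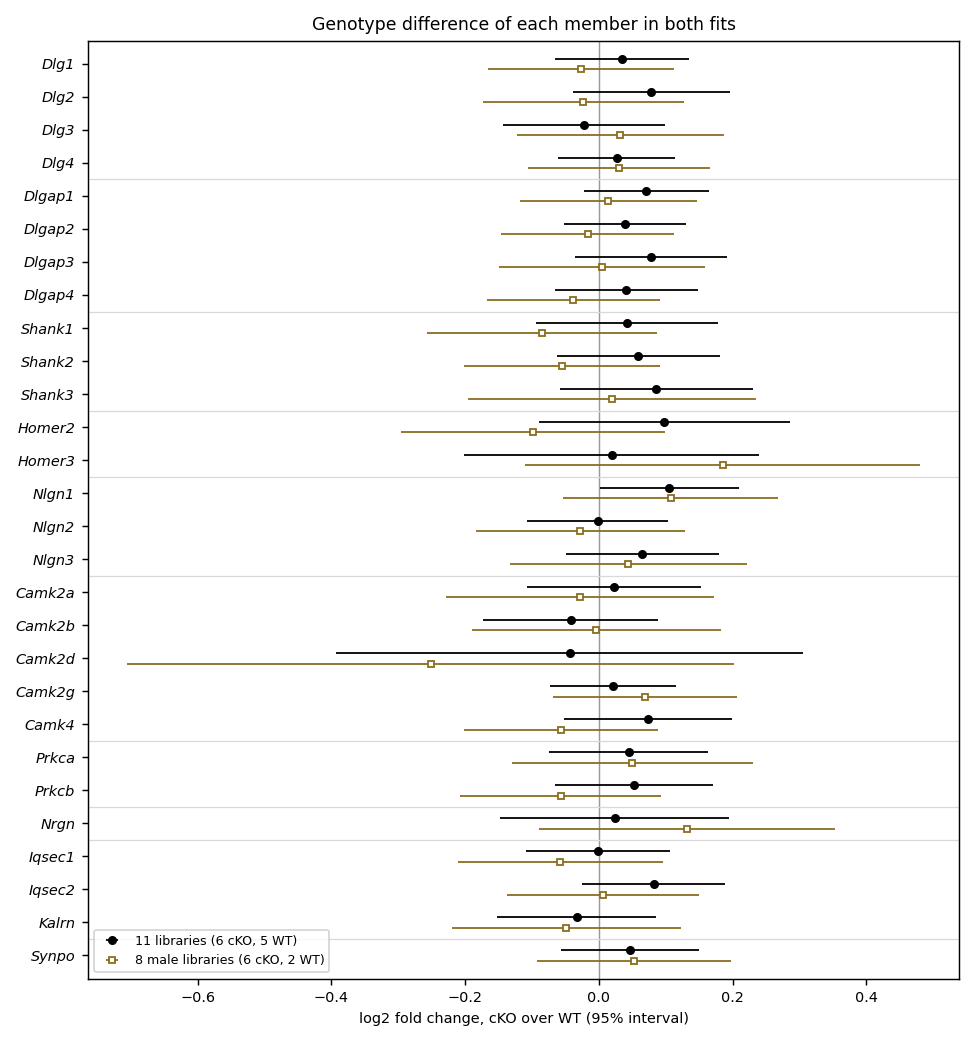
Log2 fold change of each member, cKO over WT, with its 95% interval, for all 11 libraries (filled circles) and for the 8 male libraries (open squares). With 11 libraries 22 of 28 members lie above 0, and with the male libraries 13 do; only the 11-library interval of Nlgn1 leaves out 0.

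The WT libraries also differed by sex for part of the members. In 10 of 28 members (35.7%) all 3 female WT libraries lay below both male WT libraries, a pattern found in 10.1% of all genes. The reverse order held for Homer3 and Nrgn, 2 of 28 members (7.14%), against 12.1% of all genes. The 10 were Dlg1, Dlg2, Dlgap2, Dlgap4, Shank1, Shank2, Homer2, Camk4, Prkcb and Iqsec2. The mean of WT females was below that of WT males for 20 of 28 members (71.4%) and for 48.7% of all genes. Libraries of 3 and 2 are too few for an exact permutation test to pass 0.05, so no test was made, and the order of libraries within WT is a description. All 3 female libraries also had a lower mean over the members than both male ones, as given below, and whether sex or another feature of these 3 libraries goes with it cannot be told apart.

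Of the Dlg scaffolds, which anchor receptors at the membrane, Dlg2 (PSD-93, ENSMUSG00000052572, mm10, chromosome 7, 90476672 to 92449247, plus strand) had the smallest p. Its level in the libraries labelled cKO was 459.5 CPM at the lowest, 505 CPM at the median and 527 CPM at the highest, and in WT replicates 1 to 5 it was 465, 527, 454, 426 and 487 CPM. The ranges overlapped, with 1 cKO library above all WT libraries and WT replicates 3 and 4, both female, below all cKO libraries. The means were 498 ± 26.6 CPM in cKO and 472 ± 37.6 CPM in WT (SD, n = 6 cKO and 5 WT), a log2 fold change of 0.08 ± 0.06 (SE; edgeR, adjusted p = 0.701), and in the male libraries it was -0.02 ± 0.07. Dlg4, which encodes PSD-95, the main scaffold of the postsynaptic density, was the steadiest member, with a within-group SD of 0.04 on the log2 scale. It had 1108 ± 19.4 CPM in cKO and 1088 ± 36.7 CPM in WT (SD, n = 6 cKO and 5 WT). Its log2 fold change was 0.03 with a 95% interval from -0.06 to 0.11, and 0.03 again in male libraries.

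Dlg3 (SAP102, ENSMUSG00000000881, chromosome X, 100767722 to 100818410, plus strand) is the scaffold most used early in synapse formation. In cKO it had 194 CPM at the lowest, 204 CPM at the median and 225 CPM at the highest, and in WT replicates 1 to 5 it had 198, 207, 210.4, 239 and 199.6 CPM. WT replicate 4 was above every other library, and 2 cKO libraries were below all WT libraries. Dlg3 averaged 207 ± 13.8 CPM in cKO and 211 ± 16.7 CPM in WT (SD, n = 6 cKO and 5 WT), with a log2 fold change of -0.02 ± 0.06 (SE; edgeR, adjusted p = 0.937) and of 0.03 in male libraries. Dlg1 (SAP97), which traffics AMPA receptors, had 113 ± 5.18 CPM in cKO and 110.2 ± 6.09 CPM in WT (SD, n = 6 cKO and 5 WT). The log2 fold change of Dlg1 was 0.03 with 11 libraries and -0.03 in male libraries.

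The 4 SAPAP scaffolds, which bridge Dlg4 and Shank proteins, had log2 fold changes between 0.04 and 0.08 with 11 libraries and between -0.04 and 0.01 in male libraries. Dlgap1 (ENSMUSG00000003279, chromosome 17, 69969073 to 70821413, plus strand) came nearest to the threshold. It had 669 CPM at the lowest, 694 CPM at the median and 717 CPM at the highest cKO library, against 629, 707, 624, 665 and 664 CPM in WT replicates 1 to 5. All 6 cKO libraries were above 4 of the 5 WT libraries, and WT replicate 2 lay within the cKO range. The means were 691 ± 16.9 CPM in cKO and 658 ± 33.7 CPM in WT (SD, n = 6 cKO and 5 WT), with a log2 fold change of 0.07 ± 0.04 (SE; edgeR, adjusted p = 0.646) and of 0.01 ± 0.06 in male libraries. Dlgap3, the SAPAP best known from striatal synapses, averaged 491 ± 26.6 CPM in cKO and 465.5 ± 33.2 CPM in WT, Dlgap4 262 ± 8.62 CPM in cKO and 255 ± 19.6 CPM in WT, and Dlgap2 62.9 ± 1.90 CPM in cKO and 61.2 ± 2.88 CPM in WT (SD, n = 6 cKO and 5 WT).

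The 3 Shank genes encode the deep scaffold that ties SAPAP to Homer and to actin. Shank3 (ENSMUSG00000022623, chromosome 15, 89499623 to 89560261, plus strand) had 490.3 CPM at the lowest, 585 CPM at the median and 646 CPM at the highest cKO library, and 549, 605, 505, 522 and 534 CPM in WT replicates 1 to 5. The cKO libraries were the more scattered and included both the highest and the lowest value of all 11. Shank3 averaged 576 ± 59.9 CPM in cKO and 543 ± 38.3 CPM in WT (SD, n = 6 cKO and 5 WT), a log2 fold change of 0.09 ± 0.07 (SE; edgeR, adjusted p = 0.737), and 0.02 ± 0.10 in male libraries. Shank1 had 776 ± 60.1 CPM in cKO and 753 ± 68.0 CPM in WT, and Shank2 267 ± 14.5 CPM in cKO and 257 ± 22.8 CPM in WT (SD, n = 6 cKO and 5 WT). Their log2 fold changes were 0.04 and 0.06 with 11 libraries but -0.08 and -0.06 in male libraries.

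Homer proteins bind a short motif in Shank and in group I metabotropic glutamate receptors. Homer2 (ENSMUSG00000025813, chromosome 7, 81600481 to 81707527, minus strand) had 167 CPM at the lowest, 190.4 CPM at the median and 213 CPM at the highest cKO library, against 161, 215, 154, 159 and 187 CPM in WT replicates 1 to 5. The 3 female WT libraries were below every cKO library, and the 2 male WT libraries were within or above the cKO range. Its means of 187 ± 17.5 CPM in cKO and 175 ± 25.8 CPM in WT (SD, n = 6 cKO and 5 WT) gave a log2 fold change of 0.10 ± 0.09 (SE; edgeR, adjusted p = 0.778), against -0.10 ± 0.09 in male libraries. Homer3 went the other way by sex, with 72.4 ± 11.05 CPM in cKO and 71.5 ± 8.14 CPM in WT (SD, n = 6 cKO and 5 WT) and log2 fold changes of 0.02 with 11 libraries and 0.18 in male libraries. Homer3 shares 874 exon bases with Ddx49 on the other strand, which had 22.3 to 28.3 CPM. Whether counting used the strand is not given in the sources used here, so part of either count may belong to the other gene.

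Nlgn1, the neuroligin of excitatory synapses, was the member of smallest p (ENSMUSG00000063887, chromosome 3, 25426215 to 26332460, minus strand). In the libraries labelled cKO it had 74.6 CPM at the lowest, 80.6 CPM at the median and 87.9 CPM at the highest, and in WT replicates 1 to 5 it had 74.9, 77.4, 75.4, 75.7 and 73.3 CPM. The 5 WT libraries lay close together, while 4 of 6 cKO libraries were above all of them and the other 2 lay among them. The means were 81.1 ± 5.75 CPM in cKO and 75.3 ± 1.496 CPM in WT (SD, n = 6 cKO and 5 WT). The difference on the log2 scale was 0.11 ± 0.05 (SE; 95% interval 0.00 to 0.21), which did not pass (edgeR, adjusted p = 0.536, unadjusted p = 0.0472). In male libraries it was as large, 0.11 ± 0.08, with a 95% interval from -0.05 to 0.27 (edgeR, unadjusted p = 0.176). The unadjusted p was over 0.05 when any of cKO replicates 1, 3 and 5 or WT replicates 1, 3, 4 and 5 was left out, and with library totals alone as the scale, where it was 0.123 (edgeR, unadjusted). Nlgn1 shares 1229 exon bases with the antisense gene A830092H15Rik, whose level was 1.16 to 1.89 CPM.

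Nlgn3 (ENSMUSG00000031302, chromosome X, 101299168 to 101325963, plus strand) is found at excitatory and inhibitory synapses. It had 31.6 CPM at the lowest, 34.96 CPM at the median and 38.9 CPM at the highest cKO library, and 32.7, 36.1, 33.3, 33.3 and 31.9 CPM in WT replicates 1 to 5. The cKO range was the wider and took in the whole WT range, with 1 cKO library above it and 1 below it. The means were 35.02 ± 2.36 CPM in cKO and 33.5 ± 1.58 CPM in WT (SD, n = 6 cKO and 5 WT), with a log2 fold change of 0.07 ± 0.05 (SE; edgeR, adjusted p = 0.752) and of 0.04 in male libraries. It shares 3823 exon bases with Gm21986 on the same strand, which was at 0.0844 to 0.616 CPM, so its count is uncertain by the way such reads were assigned. Nlgn2, the neuroligin of inhibitory synapses, stood at 216 ± 13.1 CPM in cKO and 216 ± 10.7 CPM in WT (SD, n = 6 cKO and 5 WT), with a log2 fold change of -0.00 ± 0.05 (SE) and of -0.03 in male libraries.

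The CaM kinases held the most abundant member and, per kilobase of exon union, the rarest. Averaged over 11 libraries, Nlgn3 was lower than Camk2d by CPM and per kilobase of the longest transcript. Camk2a had 6950 ± 475 CPM in cKO and 6840 ± 479 CPM in WT (SD, n = 6 cKO and 5 WT), a log2 fold change of 0.02 with a 95% interval from -0.11 to 0.15, and Camk2b had 1211 ± 102 CPM in cKO and 1247 ± 85.8 CPM in WT (SD, n = 6 cKO and 5 WT), a log2 fold change of -0.04 with an interval from -0.17 to 0.09. Camk2g, the gamma subunit, which carries calmodulin to the nucleus, had 214 ± 9.12 CPM in cKO and 210.4 ± 9.08 CPM in WT (SD, n = 6 cKO and 5 WT), a log2 fold change of 0.02. In male libraries the log2 fold changes were -0.03 for Camk2a, -0.00 for Camk2b and 0.07 for Camk2g. Camk2d was the most variable member, with a within-group SD of 0.28 on the log2 scale. Its WT replicate 5 stood at 52.0 CPM, while the other 4 WT libraries had 28.8 to 36.3 CPM and the cKO libraries 29.6 to 43.7 CPM. Its log2 fold change, -0.04 ± 0.16 (SE), had a 95% interval from -0.39 to 0.31, so a 25% change was not detectable at this spread. Without WT replicate 5 it was 0.13, and in male libraries, which include that replicate, it was -0.25.

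Camk4 (ENSMUSG00000038128, chromosome 18, 32934931 to 33191228, plus strand) encodes the nuclear kinase CaMKIV, which phosphorylates CREB. Its lowest, median and highest cKO levels were 109.7, 121 and 124 CPM, and WT replicates 1 to 5 had 109, 127, 106, 101 and 120.2 CPM. The 3 female WT libraries were below every cKO library, and of the 2 male ones WT replicate 2 was the highest library of all. Camk4 averaged 118 ± 6.74 CPM in cKO and 113 ± 10.5 CPM in WT (SD, n = 6 cKO and 5 WT), a log2 fold change of 0.07 ± 0.06 (SE; edgeR, adjusted p = 0.741), and -0.06 ± 0.07 in male libraries.

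Both conventional protein kinases C respond to calcium and diacylglycerol. Prkcb (ENSMUSG00000052889, chromosome 7, 122288751 to 122634402, plus strand) had 422 CPM at the lowest, 442 CPM at the median and 491 CPM at the highest cKO library, and 406, 473, 407, 411 and 459 CPM in WT replicates 1 to 5. Again the 3 female WT libraries were below every cKO library and the 2 male ones within the cKO range. The means were 447 ± 27.1 CPM in cKO and 431 ± 32.3 CPM in WT (SD, n = 6 cKO and 5 WT), with a log2 fold change of 0.05 ± 0.06 (SE; edgeR, adjusted p = 0.821) and of -0.06 ± 0.07 in male libraries. Prkca had 295 ± 26.1 CPM in cKO and 286 ± 8.57 CPM in WT (SD, n = 6 cKO and 5 WT), with log2 fold changes of 0.04 with 11 libraries and 0.05 in male libraries. Nrgn, which holds calmodulin at low calcium, had 1290.2 ± 151 CPM in cKO and 1269 ± 132 CPM in WT (SD, n = 6 cKO and 5 WT), with log2 fold changes of 0.02 ± 0.08 with 11 libraries and 0.13 ± 0.10 in male libraries (SE).

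Iqsec2 (ENSMUSG00000041115, chromosome X, 152144268 to 152225236, plus strand) is a calmodulin-binding exchange factor for Arf6 at the postsynaptic density. In cKO it had 324 CPM at the lowest, 349 CPM at the median and 371 CPM at the highest, and in WT replicates 1 to 5 it had 318, 356, 299.6, 330.4 and 337 CPM. WT replicates 1 and 3, both female, were below every cKO library, and both male ones were within the cKO range. The means were 347 ± 17.1 CPM in cKO and 328 ± 21.1 CPM in WT (SD, n = 6 cKO and 5 WT), with a log2 fold change of 0.08 ± 0.05 (SE; edgeR, adjusted p = 0.644) and of 0.01 ± 0.07 in male libraries. Within WT the mean of Iqsec2 was 316 CPM in females and 347 CPM in males, that of Dlg3 216 CPM in females and 203 CPM in males, and that of Nlgn3 33.1 CPM in females and 34.01 CPM in males, so the 3 X-linked members did not share a direction by sex.

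Iqsec1, the paralogue of Iqsec2, had 248 ± 14.3 CPM in cKO and 248 ± 14.7 CPM in WT, and Kalrn (kalirin), which activates Rac1 in spines, 608 ± 43.9 CPM in cKO and 622 ± 38.1 CPM in WT (SD, n = 6 cKO and 5 WT). Synpo (synaptopodin), the protein of the spine apparatus, had 218 ± 10.8 CPM in cKO and 211 ± 12.0 CPM in WT (SD, n = 6 cKO and 5 WT). Their log2 fold changes were -0.00, -0.03 and 0.05, with a lowest adjusted p of 0.822 (edgeR), and in male libraries they were -0.06, -0.05 and 0.05.

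Ratios between relatives take out the scaling of a library, and 14 pairs were compared by their log2 ratio. The groups overlapped in all 14, and the differences of means, cKO minus WT, ran from -0.09 to 0.11. Nlgn1 to Nlgn2, the ratio of the excitatory to the inhibitory neuroligin, had the largest positive difference with all 11 libraries, with -1.41 ± 0.05 in cKO and -1.52 ± 0.09 in WT (log2, SD, n = 6 cKO and 5 WT). Its difference was 0.11, and 0.13 when only the male WT libraries were taken. Without WT replicate 5 it was 0.07, below the 0.09 of Camk2d to Camk2g, and without cKO replicate 3 it was 0.09, below the 0.11 of Iqsec2 to Iqsec1. Camk2a to Camk2b was 2.52 ± 0.12 in cKO and 2.46 ± 0.11 in WT, and Dlg4 to Dlg3 was 2.42 ± 0.10 in cKO and 2.37 ± 0.11 in WT (log2, SD, n = 6 cKO and 5 WT). Homer3 to Homer2 ranged from -1.61 to -0.88 in cKO and from -1.70 to -0.97 in WT, with the 3 female WT libraries at -1.10 to -0.97 and the 2 male ones at -1.70 and -1.61. Its difference of means was -0.09 with all WT libraries and 0.27 with the male ones. With 1 library left out it ran from -0.19, without cKO replicate 4 or WT replicate 2, to -0.01 without WT replicate 1, and it was -0.17 without WT replicate 5, -0.06 without cKO replicate 5, and -0.04 without cKO replicate 1 or WT replicate 3 or 4.

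**Figure D4:**
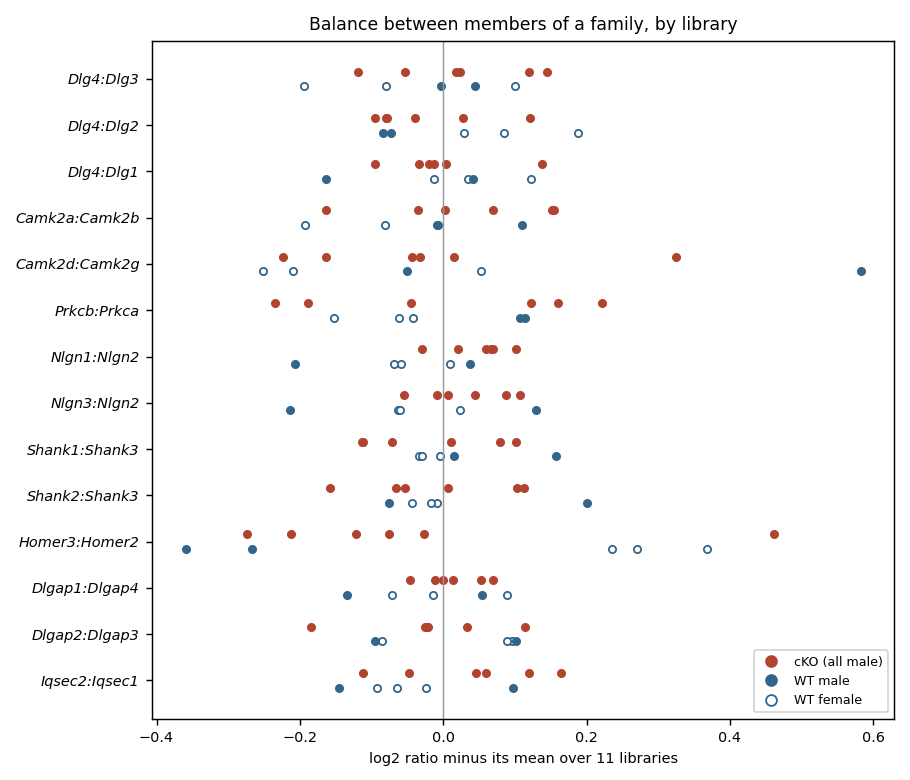
Log2 ratio of 14 pairs of related members in each library, minus the mean of that pair over 11 libraries, with cKO above WT in each row. The groups overlap in all 14 pairs. Within WT the gap between the sexes is widest for Homer3 to Homer2. Before centring, its females lie at -1.10 to -0.97 and its males at -1.70 and -1.61.

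The members varied together in some libraries. The mean of the centred log2 levels of all 28 was 0.02 ± 0.03 in cKO and -0.02 ± 0.05 in WT (SD, n = 6 cKO and 5 WT), with a range of -0.02 to 0.06 in cKO and of -0.10 to 0.04 in WT. The 3 female WT libraries had -0.10 to -0.02 and the 2 male ones 0.01 and 0.04. WT replicate 3 was the lowest WT library for 15 of 28 members, and WT replicate 2 the highest for 13. The shares of all genes lowest or highest in these libraries are not given here, so the 2 counts cannot be set against them. The mean of the centred log2 levels over all genes tested was 0.02 in WT replicate 3 and -0.01 in WT replicate 2. Without WT replicate 3 the median log2 fold change of the members was 0.02. Without WT replicate 2, 6 members had an unadjusted p under 0.05 (Dlg2, Dlgap1, Dlgap3, Homer2, Iqsec2 and Nlgn1), and the lowest adjusted p was then 0.438 (edgeR). The share of all genes at that unadjusted threshold without WT replicate 2 is not given here, so the 6 cannot be set against it.

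A further pattern crossed the genotypes. Nrgn, Camk2b and Camk2g were each highest in cKO replicate 4 among cKO libraries, at 1532, 1368 and 229 CPM. Among WT libraries they were each highest in WT replicate 4, at 1493, 1388 and 221 CPM. Dlg3 was at 223 CPM in cKO replicate 4 and at 239 CPM in WT replicate 4, though cKO replicate 6 was higher than cKO replicate 4 for Dlg3, at 225 CPM. Within each genotype the summed level of 12 markers of CA2 and CA3 pyramidal cells was also highest in replicate 4, at 1319 CPM in cKO and 1215 CPM in WT, and cKO replicate 6 had 1257 CPM. The same held for the 12 pan-neuronal markers, at 10917 CPM in cKO and 10013 CPM in WT, and for Dclk3, at 25.7 CPM in cKO and 28.1 CPM in WT. Their part in these levels was not tested. Nrgn, Camk2b, Camk2g and Dlg3 were picked after their values were seen.

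**Figure D5:**
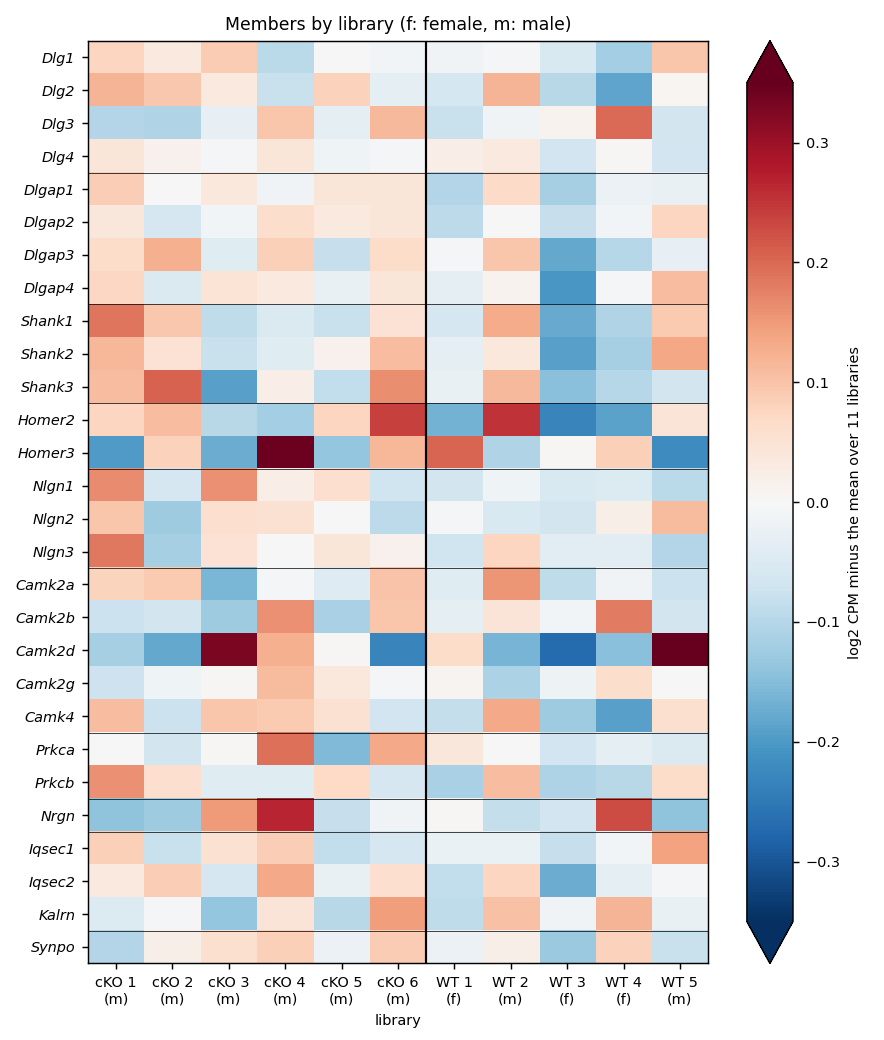
Log2 CPM of each member (rows) in each library (columns, cKO left of WT, m male and f female), minus the member's mean over 11 libraries. WT replicate 3 is below the mean for most members. Nrgn, Camk2b, Camk2g and Dlg3 are among the members above their means in replicate 4 of both genotypes.

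The members' spread was close to that of genes as abundant. Their median within-group SD was 0.10 on the log2 scale, against 0.13 over all genes tested and 0.09 over the genes at least as abundant as the lowest member, and 12 of 28 members were below that last value. The median SE of a member's log2 fold change was 0.06, with a range of 0.04 to 0.16.

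Other genes of the postsynapse were read from 4 lists, none of whose genes passed the adjusted test. For all 4 lists, the shares over all genes at an unadjusted p under 0.05 (edgeR) were 3.84% higher and 5.35% lower. Of 37 other scaffolds and adaptors of the postsynaptic density, 24 had a log2 fold change above 0 and 13 below, with a median of 0.04 with 11 libraries and 0.01 in male libraries, and 4 higher and 2 lower had an unadjusted p under 0.05. The smallest p among them were those of Magi1, an inverted guanylate kinase scaffold, with 51.9 ± 2.96 CPM in cKO and 56.8 ± 3.24 CPM in WT, Sipa1l1 (SPAR), which acts on Rap in spines, with 599 ± 32.9 CPM in cKO and 550.2 ± 27.6 CPM in WT, and Cnksr2, a scaffold of Ras signalling, with 353 ± 10.8 CPM in cKO and 329 ± 13.5 CPM in WT (SD, n = 6 cKO and 5 WT). Their log2 fold changes were -0.13, 0.12 and 0.10 (edgeR, adjusted p = 0.476, 0.476 and 0.496), and -0.16, 0.07 and 0.07 in male libraries.

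Of 35 other enzymes of calcium signalling and plasticity, 21 were above 0 and 14 below, with a median of 0.01, and of 0.03 in male libraries, and 1 higher and 3 lower had an unadjusted p under 0.05. Prkcd, a calcium-independent protein kinase C that is also on the list of thalamic markers, had 23.4 ± 2.99 CPM in cKO and 29.4 ± 3.57 CPM in WT (SD, n = 6 cKO and 5 WT), a log2 fold change of -0.33 ± 0.09 (SE; edgeR, adjusted p = 0.352) and of -0.50 in male libraries. The 10 thalamic markers summed to 125 to 168 CPM in cKO and 157 to 169 CPM in WT. Of the 9 tested, 4 were above 0 and 5 below, with a median of -0.11, and of -0.21 in male libraries. Of these 9, 3 were lower at an unadjusted p under 0.05 (edgeR), Prkcd among them, against 5.35% of all genes. The groups did not overlap for 2, both lower, against 0.512% of all genes. The part of thalamic tissue in these levels was not tested. Camkk2, the kinase that activates CaMKIV, had 122 ± 7.64 CPM in cKO and 136 ± 7.20 CPM in WT (SD, n = 6 cKO and 5 WT), a log2 fold change of -0.15 (edgeR, adjusted p = 0.416) and of -0.20 in male libraries. Pcp4, a calmodulin-binding protein also listed as a CA2 marker, had 29.6 ± 2.39 CPM in cKO and 33.5 ± 4.004 CPM in WT (SD, n = 6 cKO and 5 WT), with log2 fold changes of -0.18 with 11 libraries and -0.16 in male libraries.

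Of 32 synaptic adhesion genes, 19 were above 0 and 13 below, with a median of 0.01, and of -0.00 in male libraries, and 2 higher and 0 lower had an unadjusted p under 0.05. They were Lrrtm2, a neurexin ligand like the neuroligins, with 61.6 ± 3.16 CPM in cKO and 56.6 ± 3.54 CPM in WT, and Adam23, a catalytically inactive ADAM protein that binds LGI1, with 115 ± 5.68 CPM in cKO and 107 ± 2.47 CPM in WT (SD, n = 6 cKO and 5 WT). The next, Lrrc4c (NGL-1), had 74.5 ± 8.39 CPM in cKO and 68.0 ± 2.25 CPM in WT (SD, n = 6 cKO and 5 WT). The log2 fold changes of these 3 were 0.12, 0.10 and 0.13 with 11 libraries and 0.09, 0.10 and 0.11 in male libraries. Of 29 regulators of spine GTPases and actin, 15 were above 0 and 14 below, with a median of 0.01, and of -0.02 in male libraries, and 0 higher and 2 lower had an unadjusted p under 0.05. These were Limk2, a kinase of cofilin, with 113 ± 7.99 CPM in cKO and 125 ± 5.53 CPM in WT, and Cyth1, an Arf exchange factor, with 90.4 ± 5.56 CPM in cKO and 98.8 ± 6.70 CPM in WT (SD, n = 6 cKO and 5 WT), with log2 fold changes of -0.14 and -0.13 with 11 libraries and of -0.16 and -0.21 in male libraries.

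Markers of cell types and regions were read beside the members, by the summed level in each library and by single genes, for which the shares over all genes at an unadjusted p under 0.05 were 3.84% higher and 5.35% lower. The 12 astrocyte markers summed to 10326.5 to 12633 CPM in cKO and to 8668 to 10029 CPM in WT. These sums did not overlap, while each single marker did. Of the 12, 10 had a log2 fold change above 0, 4 of them at an unadjusted p under 0.05, and the median was 0.12 with 11 libraries and 0.11 in male libraries. The microglial markers summed to 781 to 1246 CPM in cKO and 791 to 899 CPM in WT, with 12 of 12 above 0, 5 of them at an unadjusted p under 0.05, and a median of 0.22 with 11 libraries and 0.29 in male libraries. The pan-neuronal markers summed to 9372 to 10917 CPM in cKO and 9589 to 10013 CPM in WT. Of the 12, 11 were above 0, 1 of them at an unadjusted p under 0.05 (edgeR), with a median of 0.06, and of 0.11 in male libraries.

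Of the hippocampal fields, CA1 markers had 8 of 9 above 0, 2 of them at an unadjusted p under 0.05 (edgeR), with a median of 0.09, and of 0.03 in male libraries. CA2 and CA3 markers had 10 of 12 below 0, 2 of them at that threshold (median -0.08, and -0.05 in male libraries). Dentate granule cell markers had 9 of 12 below 0, 2 of them at that threshold (median -0.07, and 0.02 in male libraries). Meningeal fibroblast markers had 7 of 9 below 0, 5 of them at an unadjusted p under 0.05, with a median of -0.56, and of -0.11 in male libraries, and sums of 103 to 193 CPM in cKO and 128 to 198 CPM in WT. Choroid plexus markers had 7 of 8 below 0, 1 of them at that threshold (median -0.10, and -0.26 in male libraries). Of 7 tested mitochondrially encoded mRNAs, 7 were above 0, 0 of them at that threshold (median 0.10, and -0.03 in male libraries). The 10 striatal markers had 2 higher and 1 lower at that threshold, and the 12 endothelial and mural markers 1 higher and 2 lower. The interneuron, neocortical and oligodendrocyte lists had 0 in either direction. No marker of these lists that was found in the table was at 0 in every library. The part of any of them in the differences of the members was not tested.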

How the data were processed

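RNA-seq libraries of polyadenylated RNA from 1 hippocampus each were made with a strand-marking kit, per the labels' protocols. Of tools and builds, bcl2fastq 2.17.1.14 and mm10 are named in the submitters' processing notes, and how reads were aligned and counted, on which annotation and whether by strand, is not given in the sources used here. What the authors deposited are raw counts, whole numbers per Ensembl gene. Of 30681 genes, 30566 matched a symbol in GENCODE M21 (mm10). Groups were taken from the genotype label. No pair of libraries within a group was alike within sampling noise, with a smallest chi-square per degree of freedom of 5.59.

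After filterByExpr 16587 genes were kept and scaled by TMM, and CPM were computed here from the counts. Genotype was tested by a robust quasi-likelihood F test in edgeR, 2-sided, with Benjamini-Hochberg adjustment over all these genes and a threshold of 0.05. Biological variation (common BCV) was 9.56%. The SE of a fold change was derived from its F statistic, and 95% intervals are given. A library with over 100 CPM of Xist was read as female. The script was tested on simulated data. Alternatives were other scalings and filters, DESeq2, limma-voom, a replicate block, a sex term, male libraries and each library left out. R 4.3.3, edgeR 4.0.16, limma 3.58.1 and DESeq2 1.42.0 were used.

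The members and lists were chosen with earlier results of these data known. All members are named; values by library are given for those at an unadjusted p under 0.05, for the smallest p in each role group of 2 or more and for X-linked members, and up to 3 genes of smallest p are named per wider list.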

Additional observations from a re-analysis of the deposited data

Results flagged for a closer look

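Levels of the 28 members, their mean and the 14 ratios were checked in both groups, 86 groups in all, for a single library far from the rest, and 3 ratios had one. Chance alone flags about 1 in 20 such groups. In cKO replicate 4 the log2 ratio of Homer3 to Homer2 was -0.88, while the other 5 cKO libraries had -1.61 to -1.37. In WT replicate 5 the log2 ratio of Shank1 to Shank3 was 0.61, while the other 4 WT libraries had 0.42 to 0.46. In the same library the log2 ratio of Shank2 to Shank3 was -0.89, against -1.17 to -1.10 in the other 4. WT replicate 5 was also the library in which Camk2d stood at 52.0 CPM, and cKO replicate 4 the one in which Nrgn was highest, at 1532 CPM.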

How the results depend on the processing

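No member passed the adjusted test under any of the 21 alternatives. Over all genes the count called was 0, and it was 62 with DESeq2, 3 with no filter on low counts, 1 with library totals alone and 0 to 14 with 1 library left out, the 14 without WT replicate 5. Members with an unadjusted p under 0.05 numbered 1, and 0 with library totals alone, with the sex term and in male libraries. With 1 library left out they numbered 0 to 6. The share of all genes at that threshold is given above for all 11 libraries and for male libraries, and not for the other fits. The median log2 fold change of the members was 0.04, and was -0.0129 with the sex term and -0.0105 in male libraries. It was 0.01 with library totals alone, 0.04 to 0.05 with the other scalings, filters and tools, and 0.02 to 0.06 with 1 library left out. The sign turned for 11 members with the sex term or in male libraries, for 5 with library totals alone and for 0 to 5 with 1 library left out. It turned for 4 members with the replicate block and for 4 with limma-voom. With DESeq2, with its size factors in edgeR and with each other filter it turned for 2, and with upper quartile factors for 0. Under all 21 alternatives 10 members kept their sign. The causes were not tested. The replicate number as a block (replicate block) gave 0 members called, 1 member at an unadjusted p under 0.05 and a median of 0.04. Same-numbered libraries correlated at -0.32 to 0.21, highest for replicate 4, and 2 of 10 correlated best with their own number. Animals of 1 litter or 1 handling need not correlate, so these values cannot decide whether the numbers pair the libraries. The 2 male WT libraries limit every comparison within 1 sex.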
